A study of Mus musculus with 15 samples.

Results

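A set of 35 genes of glycolysis, lactate handling and the pentose phosphate pathway was followed in mouse B cells on 15 Affymetrix arrays, 1 array per sample. The genes were chosen by name, with earlier results of these data known, and matched to the array by gene symbol. Of the 35, 31 had at least 1 probe set annotated to that gene alone, with 70 probe sets in all, among 18193 genes of the series with such a probe set. All 31 were among the 13160 genes tested. Glucose-6-phosphate isomerase (Gpi1), enolase 1 (Eno1) and glucose-6-phosphate dehydrogenase (G6pdx) had no probe set in the annotation used, and glyceraldehyde-3-phosphate dehydrogenase (Gapdh) had 3 that it shares with other genes, so these 4 were not analysed here. AM-14 mice, whose B cells carry a transgenic receptor for self IgG, were the source of the cells, which fell into 5 groups of 3. They had been given PL2-3, a monoclonal antibody to chromatin that forms immune complexes (the labels write chromatin IC), or goat anti-IgM F(ab')2 fragments together with a CpG oligodeoxynucleotide. The other groups had the CpG oligodeoxynucleotide alone, the anti-IgM fragments alone, or media without a stimulus. CpG is a ligand of Toll-like receptor 9 and anti-IgM a crosslinker of the B cell receptor, while PL2-3 complexes use the AM-14 receptor to carry DNA inside. The treatment field of anti-IgM+CpG reads none, but its titles give both agents and decided the group. The labels used here give no dose, time, or age and number of mice.

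Glucose enters a cell through membrane transporters, is trapped by hexokinase and is committed to glycolysis by phosphofructokinase, and the lower enzymes turn it into pyruvate. Lactate dehydrogenase A makes lactate from pyruvate, monocarboxylate transporters carry it out of the cell, and pyruvate dehydrogenase kinases hold pyruvate back from the mitochondria. The pentose phosphate pathway branches off after hexokinase and supplies ribose for nucleotides and NADPH. Resting B cells use little glucose and activated ones take up and ferment more of it, with Myc and Hif1a as known transcriptional regulators of many of these genes.

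Values are array signals on a linear scale. Changes are log2 differences of the signal plus 75.2, as mean ± SE from a limma fit (n = 3 per group), with "rose" and "fell" kept for a limma adjusted p over all 13160 genes under 0.05. Array medians lay between 263 and 514 signal units. The labels leave unsaid whether replicates are separate cultures or animals, so p-values measure only the spread between these arrays, and fewer cells of a type and less RNA per cell cannot be told apart. RNA of replicates 1 and 2 was labelled with an Enzo kit and that of replicate 3 with an Ambion kit, per the labels, and the kit was a term of the fit. The anti-IgM+CpG arrays stood apart: the 5'/3' ratio of their beta-actin controls was 0.105 to 0.193, while in the other groups it was 0.335 to 0.747 for the 8 Enzo-labelled arrays and 0.108 to 0.201 for the 4 Ambion-labelled ones. The signal of Xist, an RNA of female cells, was 321 to 589 there, against 4252 to 15543 on the other 12. A fit that groups them with the Ambion arrays, called actin-based, is given beside most of the results that use them. It changes the labelling term alone. Whatever lies behind the Xist signal of these arrays cannot be told apart from the stimulus in any comparison with anti-IgM+CpG. Among 6 B cell markers with a probe set, the summed signal was 47672 to 87511 with PL2-3, 45212 to 70232 with anti-IgM+CpG, 92434 to 100226 with CpG and 67751 to 96071 with anti-IgM, against 195262 to 261834 in media.

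Some of these genes rose and others fell against media, only 1 of them falling with anti-IgM. All but 1 of the 26 falls were lost in some other fit or without 1 array, as given below. With PL2-3, anti-IgM+CpG and CpG, hexokinase 2 rose furthest of the 31. With PL2-3, 11 of the 31 genes rose and 5 fell against media, where 12.4% of all tested genes rose and 13.5% fell (25.9% together). With anti-IgM+CpG, 15 rose and 10 fell, against 17.2% and 24.8% of all genes (41.9% together), and the actin-based fit gave 12 and 6, where 32.9% of all genes were called. With CpG, 9 rose and 10 fell, against 13.1% and 16.9% of all genes (30.1% together). With anti-IgM, 10 rose and 1 fell, against 10.1% and 9.32% of all genes (19.5% together). The median log2 change of the 31 was 0.17 with PL2-3, 0.49 with anti-IgM+CpG, 0.02 with CpG and 0.23 with anti-IgM, beside medians over all tested genes of -0.10, -0.29, -0.21 and -0.13. The median with anti-IgM+CpG was 0.22 in the actin-based fit. These 4 comparisons share the media arrays. Because the genes were chosen with earlier results of these data known, counts above the share of all genes are no independent support. By name, 7 genes rose with every stimulus: Hk2, Pfkl, Tpi1, Pgam1, Pkm, Ldha and Slc16a1. Pfkp and Eno2 passed the test with PL2-3, anti-IgM+CpG and anti-IgM, and Pgls and Rpia with PL2-3, anti-IgM+CpG and CpG. Aldoc was the 1 gene that fell in all 4 comparisons, though in none of them under either other scaling, and Pfkfb3, Pgk1 and Pdk3 passed the test in none of the 4 comparisons with the deposited signals of their brightest probe sets.

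**Figure D1:**
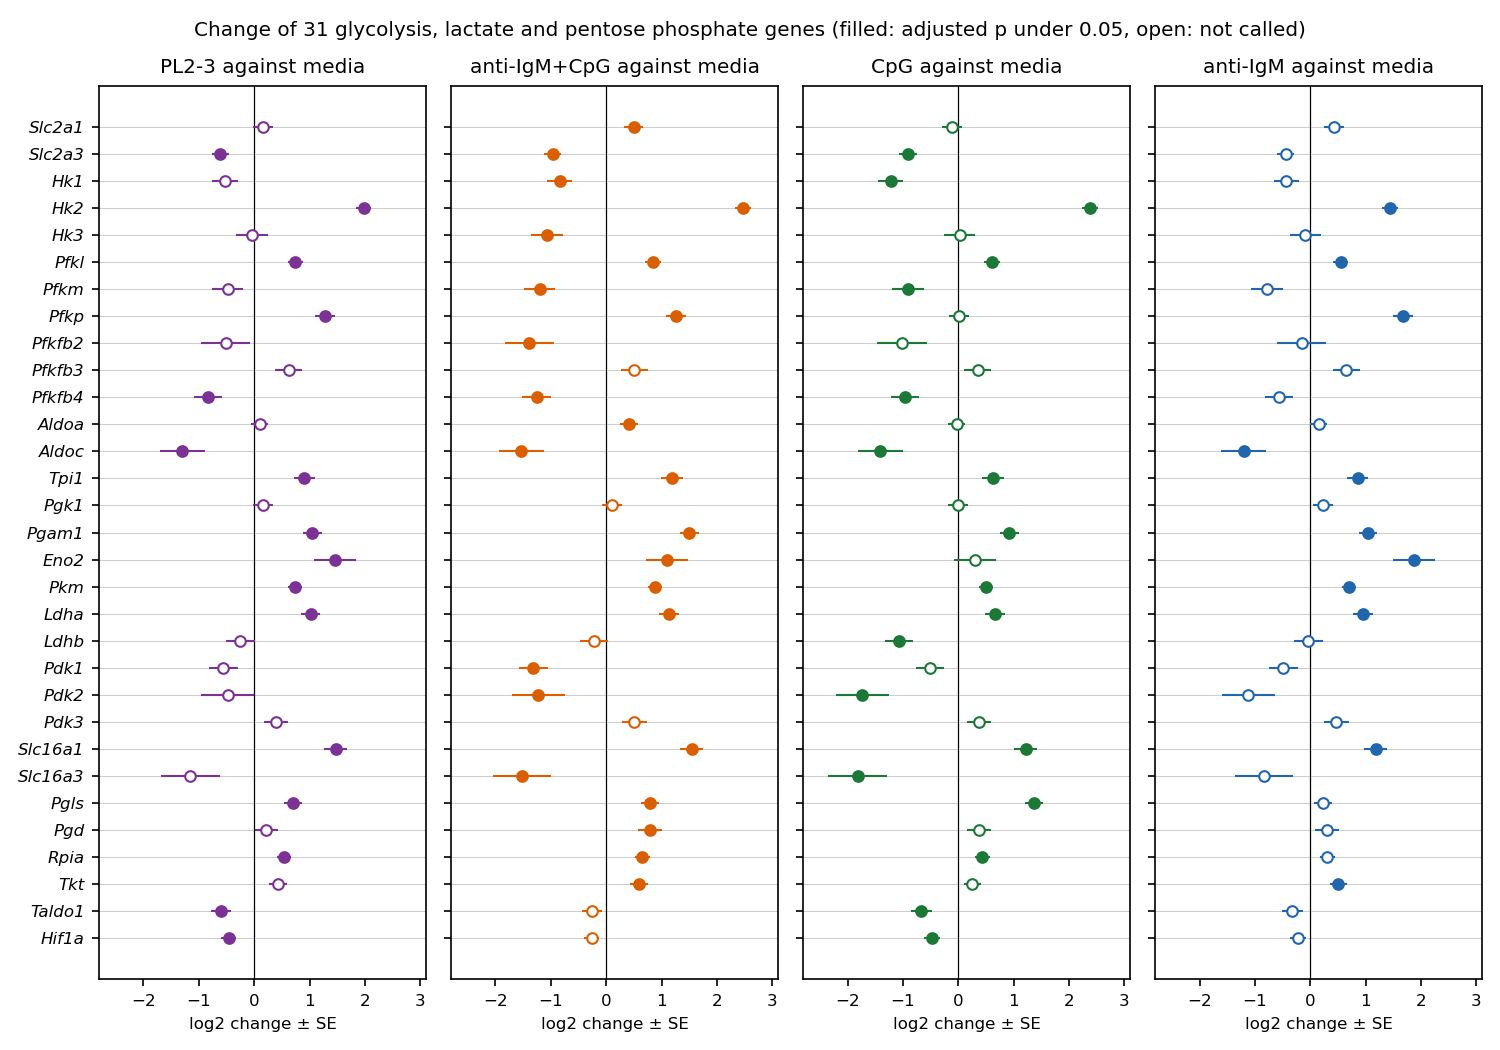
Log2 change against media (x axis, mean ± SE) of the 31 measured genes, ordered by role from glucose transport at the top to Hif1a at the bottom, in 4 panels for PL2-3, anti-IgM+CpG, CpG and anti-IgM. Filled points had an adjusted p under 0.05 and open points did not; Hk2 lies furthest to the right in the PL2-3, anti-IgM+CpG and CpG panels, at 1.97, 2.47 and 2.38.

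The rises and the falls differed in how they depended on the scaling of the arrays. After quantile normalization 13 genes rose and 4 fell with PL2-3, 14 and 5 with anti-IgM+CpG, 8 and 8 with CpG, and 11 and 1 with anti-IgM. When every array was scaled to a common median (median scaling), 11, 18, 9 and 11 rose, while 0, 0, 3 and 0 fell in the same order of stimuli. Median scaling moved the median of all genes to 0.11 with PL2-3, 0.36 with anti-IgM+CpG, 0.18 with CpG and 0.14 with anti-IgM. It also moved the share of higher calls among all called genes to 67.4%, 82.3%, 77.7% and 79.3%, against 47.8%, 40.9%, 43.7% and 52.1% as deposited. The share of all tested genes called under these scalings is not given here. Which scaling is nearer to the RNA content of the cells was not tested. Of the 45 rises against media, 30 held in every alternative fit that tested the gene and without each array of the compared groups in turn. So did 1 of the 26 falls, that of Hk1 with CpG. There were 13 alternative fits, but the rise of Eno2 with anti-IgM, among the 30, was tested in only 12 of them. Hk2, Pgam1, Pkm and Slc16a1 rose with every stimulus in all 13 alternative fits and in these leave-out runs.

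**Figure D2:**
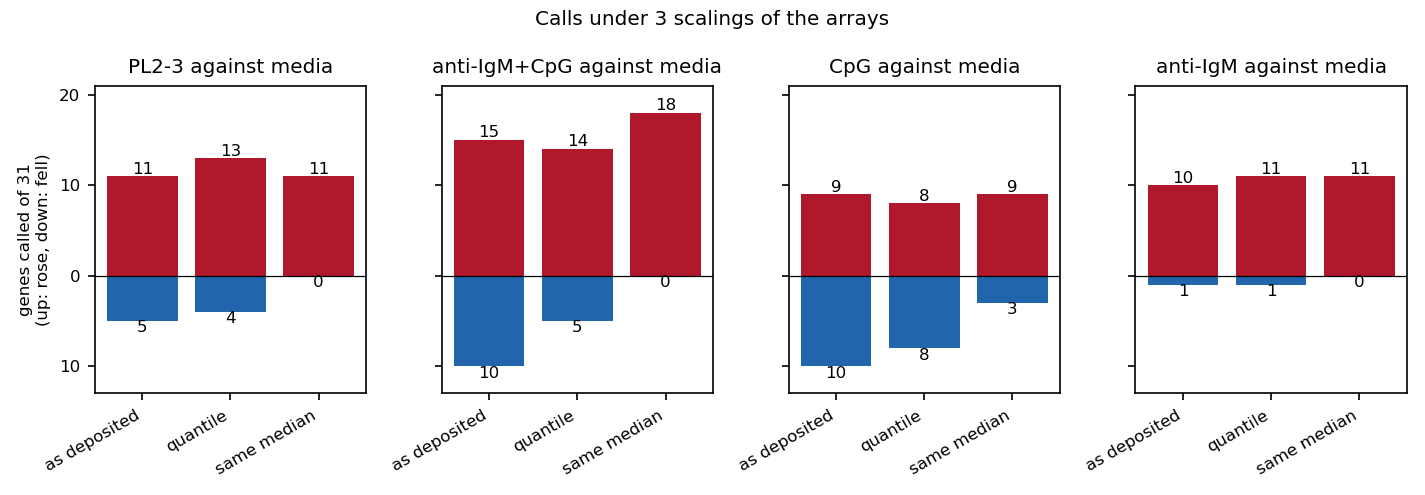
Number of the 31 genes called against media (y axis, rises upward and falls downward) with the signals as deposited, after quantile normalization and under median scaling (x axis), in 4 panels by stimulus. The rises stay between 8 and 18, while the falls go down to 0 in 3 panels and to 3 with CpG under median scaling.

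The windows from 250 bases before to 50 after the start of the gene, from RefSeq on the build GRCm38.p6, were searched for short motifs in the 34 of 35 genes that had one. The E-box CACGTG, which Myc and related factors are known to bind, lay in 5 of 34 windows (14.7%), against 1956 of 27025 windows of all genes (7.24%). The hypoxia core ACGTG or GCGTG on either strand, which the E-box also contains, lay in 28 of 34 (82.4%), against 11848 of 27025 (43.8%). Of the 7 genes that rose with every stimulus, 2 held an E-box and 5 a core. Of 15 measured genes that rose with none, 3 held an E-box and 14 a core. A match is a description of these letters and not a binding site. Shown are 3 genes that rose with every stimulus, and Pfkp and Eno2, which passed the test with every stimulus but CpG, with E-boxes and cores in capitals (CACGT and CACGC are the cores on the opposite strand). The windows are chr7:46845554-46845853 (forward strand) for Ldha, chr3:104638414-104638713 (forward strand) for Slc16a1, chr6:82774405-82774704 (reverse strand) for Hk2, chr13:6648722-6649021 (reverse strand) for Pfkp and chr6:124769624-124769923 (reverse strand) for Eno2.
Ldha: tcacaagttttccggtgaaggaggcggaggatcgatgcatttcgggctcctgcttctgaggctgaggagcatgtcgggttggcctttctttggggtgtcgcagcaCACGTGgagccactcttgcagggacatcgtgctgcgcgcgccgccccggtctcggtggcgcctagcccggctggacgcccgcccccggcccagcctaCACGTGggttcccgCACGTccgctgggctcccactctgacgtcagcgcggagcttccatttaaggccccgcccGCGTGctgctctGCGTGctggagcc
Slc16a1: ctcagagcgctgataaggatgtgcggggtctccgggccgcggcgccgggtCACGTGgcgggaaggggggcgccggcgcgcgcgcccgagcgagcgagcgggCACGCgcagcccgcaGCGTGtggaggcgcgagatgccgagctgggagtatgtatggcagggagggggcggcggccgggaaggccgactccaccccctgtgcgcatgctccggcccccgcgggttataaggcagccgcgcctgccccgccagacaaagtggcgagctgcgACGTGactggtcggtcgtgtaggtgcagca
Hk2: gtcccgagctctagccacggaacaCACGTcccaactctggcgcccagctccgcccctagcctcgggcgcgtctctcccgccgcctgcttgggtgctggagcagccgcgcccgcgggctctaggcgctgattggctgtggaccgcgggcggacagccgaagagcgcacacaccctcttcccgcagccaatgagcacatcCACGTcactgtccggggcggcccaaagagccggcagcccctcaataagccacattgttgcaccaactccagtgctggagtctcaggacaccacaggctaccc
Pfkp: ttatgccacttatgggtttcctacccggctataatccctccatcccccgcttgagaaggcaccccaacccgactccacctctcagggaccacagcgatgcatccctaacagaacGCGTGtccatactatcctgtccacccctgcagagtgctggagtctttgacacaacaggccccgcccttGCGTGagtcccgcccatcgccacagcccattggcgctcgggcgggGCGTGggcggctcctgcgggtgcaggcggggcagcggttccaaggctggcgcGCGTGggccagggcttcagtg
Eno2: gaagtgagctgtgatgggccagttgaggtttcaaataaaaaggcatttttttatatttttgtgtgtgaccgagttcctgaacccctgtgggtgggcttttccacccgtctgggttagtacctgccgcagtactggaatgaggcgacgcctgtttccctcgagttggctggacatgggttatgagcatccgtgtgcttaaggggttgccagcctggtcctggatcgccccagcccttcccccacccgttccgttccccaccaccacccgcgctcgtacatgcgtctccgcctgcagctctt
Ldha held 2 E-boxes and Slc16a1 held 1. Hk2 and Pfkp held cores without an E-box, and the Eno2 window held neither motif.

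Of the hexokinases, which add the phosphate that traps glucose, Hk2 rose with every stimulus, while Hk1 fell with anti-IgM+CpG and CpG only. Hk2, the isoform bound to mitochondria in growing cells, had signals of 10926, 10334 and 9911 with PL2-3, 15449.8, 14106 and 14596 with anti-IgM+CpG, 14225, 13089.8 and 13994 with CpG, 8125, 6464 and 6869 with anti-IgM, against 3098, 2491 and 2239 in media (replicates 1 to 3, as in the sentences that follow). Every stimulated array was above every media array, and the CpG and anti-IgM+CpG arrays were above those of PL2-3, which were above those of anti-IgM. The log2 change was 1.97 ± 0.14 with PL2-3 (limma adjusted p = 5.58e-07), 2.47 ± 0.14 with anti-IgM+CpG (4.74e-08; actin-based 2.55), 2.38 ± 0.14 with CpG (1.59e-07) and 1.43 ± 0.14 with anti-IgM (1.47e-05). Hk1, the widely expressed isoform, had signals of 4609, 4505 and 4386 with PL2-3, 5605, 3083 and 2679 with anti-IgM+CpG, 3188, 2913 and 2216 with CpG, 5375, 5068 and 4051 with anti-IgM, against 5053, 7083 and 7681 in media. The CpG arrays were the lowest as a group, and 1 anti-IgM+CpG array reached the range of media. Hk1 fell with CpG (-1.22 ± 0.23, adjusted p = 0.000822) and with anti-IgM+CpG (-0.84 ± 0.23, adjusted p = 0.00806; actin-based -0.76), while PL2-3 (-0.52 ± 0.23) and anti-IgM (-0.43 ± 0.23) did not pass the test. Another Hk1 probe set gave -7e-04 with PL2-3, -0.74 with anti-IgM+CpG, -0.17 with CpG and 0.18 with anti-IgM, none of them called. The fall with anti-IgM+CpG was lost without media replicate 3 (-0.60), on Enzo arrays alone (-0.52) and under median scaling (-0.14).

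Hk3, a hexokinase known from myeloid cells, had signals of 1117, 1397 and 842 with PL2-3, 665, 671 and 270.3 with anti-IgM+CpG, 876, 1701 and 1019 with CpG, 906, 1584 and 824 with anti-IgM, against 1148, 1222 and 1033 in media. The anti-IgM+CpG arrays were below all others, and the other 4 groups overlapped. It fell with anti-IgM+CpG (-1.07 ± 0.28, adjusted p = 0.00667), a call that was lost in the actin-based fit (-0.82), after quantile normalization (-0.49) and on Enzo arrays alone (-0.76). The log2 changes with PL2-3, CpG and anti-IgM were -0.04, 0.02 and -0.09. The summed signal of 11 myeloid markers, all of them tested, was 53681 to 86394 with PL2-3, 14881 to 150492 with anti-IgM+CpG, 50042 to 98211 with CpG and 57404 to 100523 with anti-IgM, against 120630 to 250031 in media. By replicate, the sums were 150492, 14881 and 30118 with anti-IgM+CpG and 120630, 122590 and 250031 in media, so single arrays set the upper ends. Of the 11, 2 fell with PL2-3, 8 with anti-IgM+CpG, 3 with CpG and 3 with anti-IgM, none rose, and none was listed at 0. These falls are 18.2%, 72.7%, 27.3% and 27.3% of the list, where 13.5%, 24.8%, 16.9% and 9.32% of all tested genes fell. The part of myeloid cells in this and the other falls was not tested.

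The glucose transporters also differed. Slc2a1 (GLUT1), the transporter of activated lymphocytes, had signals of 5657, 6729 and 7507 with PL2-3, 8328, 8574 and 8075 with anti-IgM+CpG, 4689, 4890.2 and 7031 with CpG, 8563, 7230.1 and 8121 with anti-IgM, against 4544, 5323 and 8464 in media. Media replicate 3 lay within the range of the stimulated groups, so the groups overlapped. Slc2a1 rose with anti-IgM+CpG (0.49 ± 0.18, adjusted p = 0.0351), and PL2-3, CpG and anti-IgM gave 0.16 ± 0.18, -0.11 ± 0.18 and 0.43 ± 0.18 without passing the test. That call was lost in the actin-based fit (0.22), after quantile normalization (0.33), and without media replicate 1 (0.35), media replicate 2 (0.47), anti-IgM+CpG replicate 1 (0.44) or anti-IgM+CpG replicate 2 (0.41). The 2 other probe sets of Slc2a1 gave 0.64 and 0.77 with anti-IgM+CpG and 0.65 and 0.66 with anti-IgM, all called higher. They gave 0.37 and 0.43 with PL2-3 and -0.03 and 0.28 with CpG, none of them called. Slc2a3 (GLUT3), a high-affinity transporter, had signals of 7096, 7185 and 6262 with PL2-3, 5828, 4884 and 5320.0 with anti-IgM+CpG, 5251, 6007 and 5487 with CpG, 7265, 9112 and 6903 with anti-IgM, against 10753, 9001 and 11989 in media. The PL2-3, anti-IgM+CpG and CpG arrays were all below media, and 1 anti-IgM array was within its range. Slc2a3 fell with PL2-3 (-0.62 ± 0.16, adjusted p = 0.00794), anti-IgM+CpG (-0.97 ± 0.16, 0.000141; actin-based -0.94) and CpG (-0.91 ± 0.16, 0.000405), and gave -0.44 ± 0.16 with anti-IgM (0.0574), which was called after quantile normalization (-0.57). Its other probe set gave -0.73, -1.16, -0.92 and -0.46 in that order. Under median scaling the 3 falls were -0.39, -0.26 and -0.48 and no longer passed, and that with PL2-3 was also lost without media replicate 3 (-0.48).

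Phosphofructokinase, which commits glucose to glycolysis, is built from 3 kinds of subunit, and each had its own pattern. Pfkl, the liver-type subunit, had signals of 11017, 13524 and 14541 with PL2-3, 14145, 12547 and 14899.6 with anti-IgM+CpG, 12890.3, 10091 and 12436 with CpG, 11582, 10831 and 11451 with anti-IgM, against 7076, 8063 and 7982 in media. All 12 stimulated arrays were above the 3 media arrays. Pfkl rose by 0.74 ± 0.14 with PL2-3, 0.84 ± 0.14 with anti-IgM+CpG (actin-based 0.76), 0.60 ± 0.14 with CpG and 0.55 ± 0.14 with anti-IgM (adjusted p = 0.00101, 0.000194, 0.00384 and 0.0115). The call with anti-IgM was lost without anti-IgM replicate 1 (0.51) and on Enzo arrays alone (0.56). The 2 other probe sets of Pfkl disagreed with each other, from -0.31 to 1.12 with anti-IgM+CpG and over narrower ranges with the other stimuli. Pfkp, the platelet-type subunit, had signals of 10593, 13328 and 10628 with PL2-3, 14026, 9571 and 10604 with anti-IgM+CpG, 4817, 5673 and 3838 with CpG, 14258, 15704 and 15091 with anti-IgM, against 4819, 3977 and 5266 in media. The PL2-3, anti-IgM+CpG and anti-IgM arrays were all above the CpG and media arrays, which overlapped. Its log2 change was 1.28 ± 0.18 with PL2-3 (adjusted p = 9.72e-05), 1.26 ± 0.18 with anti-IgM+CpG (4.99e-05; actin-based 1.31) and 1.67 ± 0.18 with anti-IgM (2.93e-05), against 0.02 ± 0.18 with CpG (0.953). Pfkm, the muscle-type subunit, had signals of 1374, 1383 and 705 with PL2-3, 607, 609 and 711 with anti-IgM+CpG, 731, 1262 and 547 with CpG, 1071, 1223 and 512 with anti-IgM, against 1388, 2189.8 and 1278 in media. It fell with anti-IgM+CpG (-1.20 ± 0.29, adjusted p = 0.0032) and CpG (-0.91 ± 0.29, 0.0239), and both calls were lost after quantile normalization (-0.69 and -0.64) and under median scaling (-0.54 and -0.51). The fall with anti-IgM+CpG was lost in the actin-based fit too (-0.68), and that with CpG without media replicate 2 (-0.78), media replicate 3 (-0.85), CpG replicate 1 (-0.75) or CpG replicate 3 (-0.85).

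**Figure D3:**
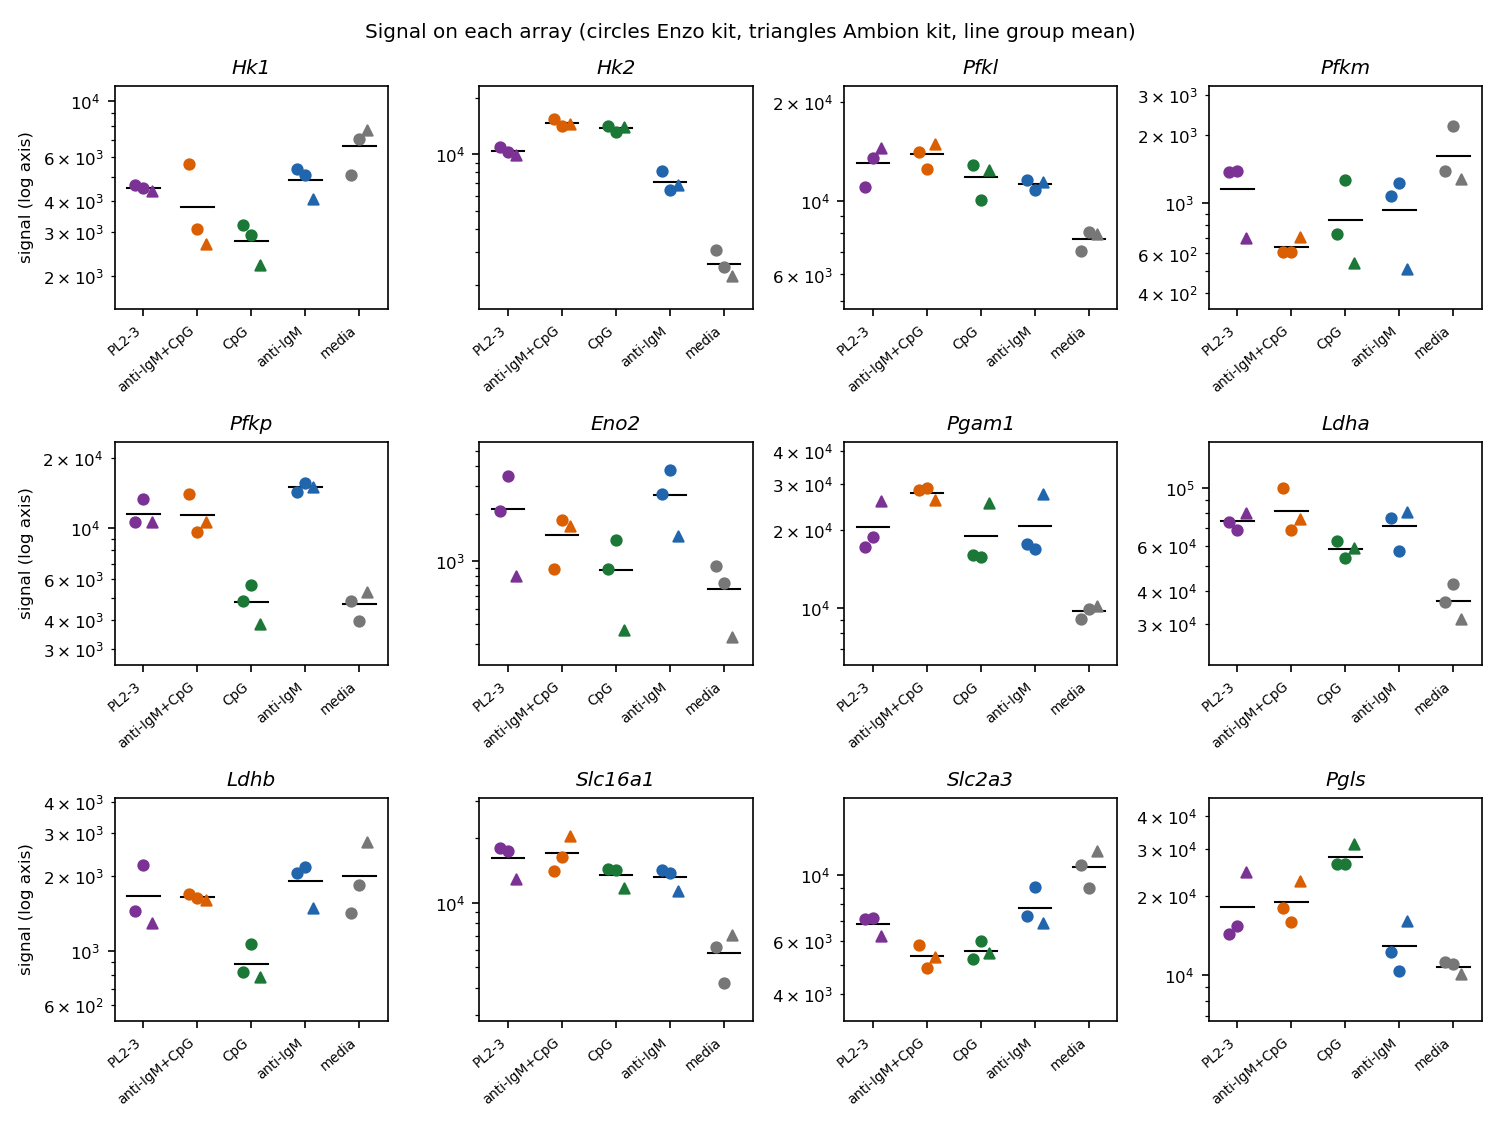
Signal on each array (y axis, log scale) of 12 of the genes, with the 5 groups on the x axis, circles for arrays labelled with the Enzo kit, triangles for the Ambion kit and a line at the group mean. Hk2 is above media on all 12 stimulated arrays, while for Pfkp the 3 CpG arrays, at 3838 to 5673, overlap media at 3977 to 5266.

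The rises of Pfkp with anti-IgM+CpG and with PL2-3 were called on its brightest probe set and not on the mean of its 3 probe sets. Its second-brightest probe set had signals of 2537, 1387 and 27.8 with PL2-3, 174, 99.3 and 125 with anti-IgM+CpG, 1082, 714 and 42.4 with CpG and 1646, 1847 and 227 with anti-IgM, against 1304, 1230.0 and 56.7 in media. It was low on the Ambion array of every group and on all 3 anti-IgM+CpG arrays. In a fit over all probe sets it was lower with anti-IgM+CpG than in media (-1.59 ± 0.61, adjusted p = 0.0479), and the other dim probe set gave -0.26. With PL2-3 the dim probe sets gave 0.24 and 1.28, and with anti-IgM 0.69 and 1.71, none of them called. The mean of the 3 probe sets gave 0.93 with PL2-3 and -0.20 with anti-IgM+CpG, neither called, and the rise with anti-IgM kept its call.

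**Figure D4:**
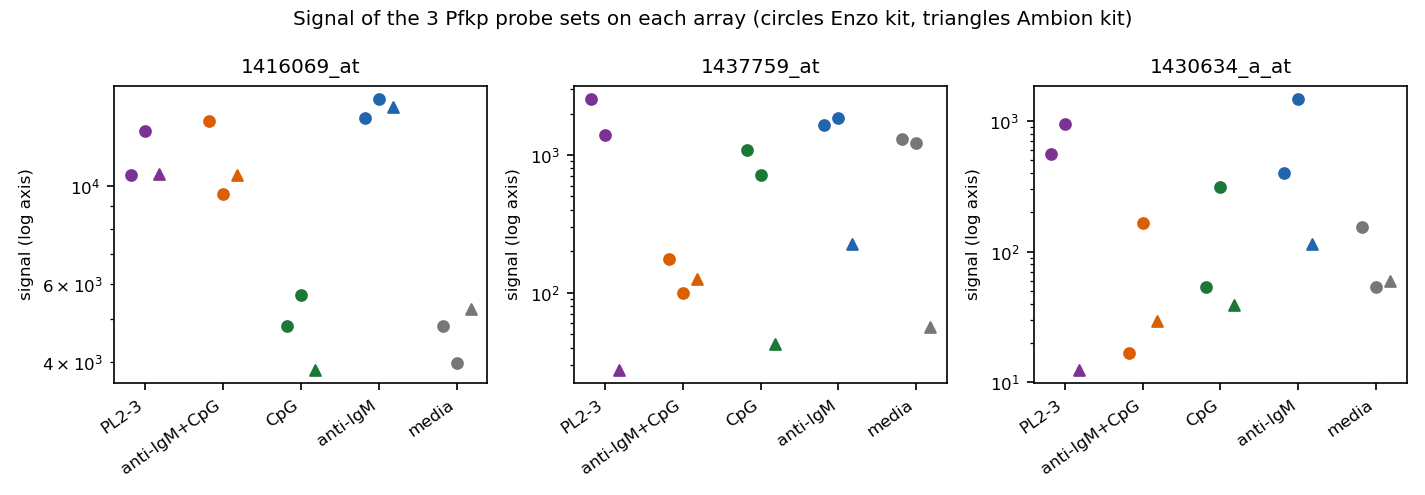
Signal on each array (y axis, log scale) of the 3 Pfkp probe sets, brightest at the left, with the 5 groups on the x axis, circles for the Enzo kit and triangles for the Ambion kit. On the middle panel the 3 anti-IgM+CpG arrays lie at 99.3 to 174, beside the Ambion arrays of the other groups, while on the left panel they lie with PL2-3 and anti-IgM.

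Pfkfb enzymes make and break down fructose 2,6-bisphosphate, the activator of phosphofructokinase. Pfkfb3, the isoform with the strongest kinase activity, had signals of 2602, 2252 and 2827 with PL2-3, 1769, 2867 and 2521 with anti-IgM+CpG, 1895, 2189 and 2227 with CpG, 2417, 2482 and 2919 with anti-IgM, against 2099, 1937 and 1054 in media. Media replicate 3 was the lowest array, and no comparison passed the test, with log2 changes of 0.62 ± 0.24 for PL2-3, 0.50 ± 0.24 for anti-IgM+CpG, 0.35 ± 0.24 for CpG and 0.65 ± 0.24 for anti-IgM. After quantile normalization Pfkfb3 was called higher with PL2-3 (0.78), anti-IgM+CpG (0.76) and anti-IgM (0.78), and under median scaling with anti-IgM+CpG (1.20) and anti-IgM (0.93), while the actin-based value with anti-IgM+CpG was 0.55 and not called. Another Pfkfb3 probe set gave 0.05 with PL2-3, -0.65 with anti-IgM+CpG, -0.48 with CpG and -0.02 with anti-IgM, none of them called. Pfkfb4, a hypoxia-inducible isoform, had signals of 1078, 1152 and 995 with PL2-3, 885, 820.3 and 649 with anti-IgM+CpG, 886, 1421 and 735 with CpG, 1005, 1671 and 1324 with anti-IgM, against 1899, 1679 and 2391 in media, with every stimulated array below the media arrays. It fell with PL2-3 (-0.83 ± 0.25, adjusted p = 0.0238), anti-IgM+CpG (-1.26 ± 0.25, 0.000956; actin-based -1.21) and CpG (-0.96 ± 0.25, 0.00948), and with anti-IgM it was -0.56 ± 0.25 (0.14). Under median scaling these falls were -0.62, -0.59 and -0.55 and no longer passed. Without media replicate 3 the falls with PL2-3 and CpG (-0.61 and -0.73) were lost, as they were without PL2-3 replicate 1 (-0.81), PL2-3 replicate 3 (-0.82) or CpG replicate 3 (-0.78). Pfkfb2, the heart isoform, had signals of 476, 688 and 392 with PL2-3, 55.5, 391 and 453 with anti-IgM+CpG, 344, 436 and 253 with CpG, 596, 951 and 524 with anti-IgM, against 768, 873 and 644 in media. It fell with anti-IgM+CpG (-1.39 ± 0.45, adjusted p = 0.0208), where replicate 1 was far below the others, and the call was lost without that array (-0.69), without media replicate 2 (-1.31), in the actin-based fit (-1.09) and after quantile normalization (-0.78). The 2 other tested probe sets of Pfkfb2 gave -0.44 and 0.78 with anti-IgM+CpG, neither called.

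Below phosphofructokinase, the 3-carbon steps rose in part. Tpi1, triose-phosphate isomerase, had signals of 14655, 14656 and 28871 with PL2-3, 27126, 18144 and 22628 with anti-IgM+CpG, 12228, 13674 and 20751 with CpG, 16766, 13441 and 24714 with anti-IgM, against 7932, 8136 and 14452 in media. Within each kit every stimulated array was above media, although the Ambion array of media overlapped Enzo arrays of anti-IgM and CpG. Tpi1 rose with PL2-3 (0.91 ± 0.19, adjusted p = 0.00243), anti-IgM+CpG (1.19 ± 0.19, 0.000152; actin-based 0.65), CpG (0.63 ± 0.19, 0.0214) and anti-IgM (0.85 ± 0.19, 0.00519). The call with CpG was lost without media replicate 1 (0.58), media replicate 2 (0.60), CpG replicate 2 (0.59) or CpG replicate 3 (0.61). Of the other Tpi1 rises, only that with anti-IgM+CpG held in every alternative fit and leave-out run. Pgam1, phosphoglycerate mutase, had signals of 17198, 18702 and 25723 with PL2-3, 28460.4, 28854 and 25837 with anti-IgM+CpG, 16021, 15648 and 25168 with CpG, 17555, 16816 and 27330.5 with anti-IgM, against 9085, 9953 and 10162 in media. Stimulated arrays were all above media, and within PL2-3, CpG and anti-IgM the Ambion array was the highest. Pgam1 rose by 1.05 ± 0.17 with PL2-3, 1.50 ± 0.17 with anti-IgM+CpG (actin-based 1.18), 0.92 ± 0.17 with CpG and 1.04 ± 0.17 with anti-IgM (adjusted p = 0.00028, 5.24e-06, 0.000643 and 0.000513). Pkm, the pyruvate kinase of most tissues, had signals of 27768, 26112 and 32294 with PL2-3, 30755, 29976 and 34024 with anti-IgM+CpG, 23269, 22637 and 27215 with CpG, 26966, 27931 and 28862 with anti-IgM, against 14371, 18255 and 19227 in media. Its groups did not overlap media either, with log2 changes of 0.74 ± 0.12, 0.88 ± 0.12, 0.50 ± 0.12 and 0.70 ± 0.12 for PL2-3, anti-IgM+CpG (actin-based 0.74), CpG and anti-IgM (adjusted p = 0.000433, 4.81e-05, 0.00634 and 0.00102). The arrays do not separate the splice forms of Pkm here.

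Eno2, the enolase named for neurons, had signals of 2089.9, 3477 and 806 with PL2-3, 895, 1823 and 1667 with anti-IgM+CpG, 886, 1361 and 366 with CpG, 2663, 3791 and 1447 with anti-IgM, against 934, 725 and 329 in media. The Ambion array was the lowest of PL2-3, CpG, anti-IgM and media, and the anti-IgM arrays were all above media. Eno2 rose with PL2-3 (1.46 ± 0.38, adjusted p = 0.00916) and anti-IgM (1.88 ± 0.38, 0.00246) and gave 0.30 ± 0.38 with CpG (0.587). The call with PL2-3 was lost without PL2-3 replicate 2 (1.15). With anti-IgM+CpG the change was 1.10 ± 0.38 (0.0284), but 0.59 on the Enzo arrays, 2.11 between the Ambion arrays and 1.98 in the actin-based fit. That call was lost on the Enzo arrays alone and without media replicate 2 (1.04), media replicate 3 (1.03), anti-IgM+CpG replicate 2 (1.08) or anti-IgM+CpG replicate 3 (0.54). Aldoa, the main aldolase of most cells, had signals of 42408, 36138 and 61222 with PL2-3, 63750.2, 50713 and 55202 with anti-IgM+CpG, 36205, 36935 and 53798 with CpG, 40133, 41996 and 61856 with anti-IgM, against 40706, 39115 and 47993 in media, and its groups lay close together. It rose with anti-IgM+CpG (0.41 ± 0.16, adjusted p = 0.0496), a call lost in the actin-based fit (0.06), after quantile normalization (0.17) and without any 1 of media replicates 1, 2 and 3 (0.45, 0.42 and 0.35) or anti-IgM+CpG replicates 1 and 2 (0.24 and 0.42). Of 4 other Aldoa probe sets, 2 were called higher with anti-IgM+CpG (0.63 and 0.75) and 1 was called lower (-0.45). Aldoc, the brain-type aldolase, had signals of 429, 242 and 369 with PL2-3, 172, 329 and 358 with anti-IgM+CpG, 478, 319 and 186 with CpG, 414, 356 and 334 with anti-IgM, against 725, 644 and 1765 in media. Every stimulated array was below the media arrays, and media replicate 3 was far above the other 2. Aldoc fell with PL2-3 (-1.30 ± 0.41, adjusted p = 0.0265), anti-IgM+CpG (-1.54 ± 0.41, 0.00653; actin-based -1.61), CpG (-1.41 ± 0.41, 0.0155) and anti-IgM (-1.20 ± 0.41, 0.048). Without media replicate 3 the changes were -0.84, -1.08, -0.95 and -0.74 and none passed. The same held after quantile normalization (-1.09, -0.92, -1.04 and -0.95) and under median scaling (-1.09, -0.93, -1.05 and -0.94). Its calls were also lost without PL2-3 replicate 2 (-1.13) or 3 (-1.29), CpG replicate 3 (-0.98), media replicate 1 (-1.36 for anti-IgM), or any 1 of anti-IgM replicates 1, 2 and 3 (-1.31, -1.22 and -1.06). Pgk1, phosphoglycerate kinase, had signals of 75173, 72846 and 77262 with PL2-3, 101153, 63034 and 58735 with anti-IgM+CpG, 67378, 67209 and 65119 with CpG, 89648, 67802 and 78409 with anti-IgM, against 66369.7, 62156 and 72626 in media, and its log2 changes of 0.17 ± 0.18, 0.11 ± 0.18, -0.01 ± 0.18 and 0.22 ± 0.18 for PL2-3, anti-IgM+CpG, CpG and anti-IgM passed no test. A second Pgk1 probe set was called higher with PL2-3 (0.57), anti-IgM+CpG (0.63) and CpG (0.46) and gave 0.44 with anti-IgM. With anti-IgM+CpG the first one was called under median scaling (0.83), and gave -0.04 after quantile normalization and 0.07 in the actin-based fit.

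At the lactate step, the enzyme that makes lactate and its exporter rose with every stimulus. Ldha, lactate dehydrogenase A, had signals of 73825, 68786 and 80245 with PL2-3, 99800.4, 68646 and 75956 with anti-IgM+CpG, 62465, 53517 and 58689 with CpG, 76636, 57014 and 80782 with anti-IgM, against 36590.1, 42739 and 31331 in media. All stimulated arrays were above the media arrays, and the Ambion array was the lowest of media. Ldha rose with PL2-3 (1.02 ± 0.18, adjusted p = 0.000536), anti-IgM+CpG (1.13 ± 0.18, 0.000107; actin-based 1.11), CpG (0.67 ± 0.18, 0.00938) and anti-IgM (0.95 ± 0.18, 0.00144). The call with CpG was lost without media replicate 3 (0.52) and on Enzo arrays alone (0.55). Slc16a1 (MCT1), which carries lactate across the membrane, had signals of 18076, 17400.1 and 12957 with PL2-3, 14094, 16375 and 20547 with anti-IgM+CpG, 14395, 14180.2 and 11649 with CpG, 14235, 13805 and 11324 with anti-IgM, against 6224, 4205 and 7102 in media. The stimulated arrays all lay above media, with the lowest of them at 11324. Slc16a1 rose by 1.47 ± 0.21 with PL2-3, 1.54 ± 0.21 with anti-IgM+CpG (actin-based 1.64), 1.21 ± 0.21 with CpG and 1.18 ± 0.21 with anti-IgM (adjusted p = 9.31e-05, 2.53e-05, 0.000358 and 0.000857). Slc16a3 (MCT4), a second lactate exporter known from muscle and myeloid cells, had signals of 413, 926 and 77.6 with PL2-3, 514, 148 and 188 with anti-IgM+CpG, 114, 488 and 99.7 with CpG, 405, 654 and 336 with anti-IgM, against 727, 1095 and 795 in media. Its arrays scattered widely within groups, and the CpG, anti-IgM+CpG and anti-IgM arrays were below media. It fell with anti-IgM+CpG (-1.52 ± 0.53, adjusted p = 0.0295; actin-based -0.89, not called) and CpG (-1.82 ± 0.53, 0.0158), while PL2-3 gave -1.15 ± 0.53 and anti-IgM -0.83 ± 0.53. The fall with CpG was lost without media replicate 3 (-1.53), CpG replicate 1 (-1.41) or CpG replicate 3 (-1.80). That with anti-IgM+CpG was lost without media replicate 2 (-1.50), media replicate 3 (-1.23) or anti-IgM+CpG replicate 2 (-1.08), after quantile normalization (-0.94) and under median scaling (-0.94).

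Ldhb, the subunit that favours the reverse step from lactate to pyruvate, had signals of 1447, 2224 and 1296 with PL2-3, 1692, 1637 and 1606 with anti-IgM+CpG, 819.6, 1059 and 779 with CpG, 2057, 2181 and 1482 with anti-IgM, against 1415, 1834 and 2758 in media. The CpG arrays were below all others, and the other groups overlapped media. Ldhb fell with CpG (-1.07 ± 0.26, adjusted p = 0.00493), with a second probe set at -0.83, and the call was lost under median scaling (-0.67) and on Enzo arrays alone (-0.74). With PL2-3, anti-IgM+CpG and anti-IgM it gave -0.25 ± 0.26, -0.22 ± 0.26 and -0.04 ± 0.26. The second probe set was not called with CpG and was called lower with anti-IgM+CpG (-1.18). It gave -0.49 with PL2-3 and -0.56 with anti-IgM, neither called. Among the kinases that inhibit pyruvate dehydrogenase, Pdk1, a hypoxia target, had signals of 812, 623 and 689.6 with PL2-3, 310.0, 462 and 397 with anti-IgM+CpG, 805, 587 and 821 with CpG, 826, 599.9 and 826 with anti-IgM, against 964, 1351 and 947 in media. Its stimulated arrays were all below media, and it fell with anti-IgM+CpG (-1.32 ± 0.26, adjusted p = 0.000755; actin-based -1.34), a call lost after quantile normalization (-0.72) and under median scaling (-0.68). The 2 other tested probe sets of Pdk1 gave -0.81 and -0.06 with anti-IgM+CpG, neither called. Pdk2 had signals of 459, 565 and 298 with PL2-3, 299, 108 and 320.3 with anti-IgM+CpG, 235, 29.9 and 213 with CpG, 197, 415 and 176 with anti-IgM, against 592, 657 and 631 in media. Pdk2 was above the median of each array in media (468, 514 and 412) and below it with CpG (396, 389 and 263). It fell with CpG (-1.73 ± 0.48, adjusted p = 0.0116), where replicate 2 was the lowest and the call was lost without it (-1.21). With anti-IgM+CpG it gave -1.22 ± 0.48 (0.0498), lost in the actin-based fit (-1.14) and without any 1 of media replicates 1, 2 and 3 (-1.26, -1.19 and -1.23) or anti-IgM+CpG replicates 1 and 2 (-1.39 and -0.85). Pdk3 had signals of 2266, 1566 and 3219 with PL2-3, 2805, 2458 and 2133 with anti-IgM+CpG, 2394, 1961 and 2351 with CpG, 2209, 2258 and 2713 with anti-IgM, against 1992, 1465 and 1689.6 in media and passed no test, with log2 changes of 0.39, 0.51, 0.37 and 0.47 for PL2-3, anti-IgM+CpG, CpG and anti-IgM. With anti-IgM+CpG it was called higher after quantile normalization (0.78) and under median scaling (1.20), and not in the actin-based fit (0.32).

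In the pentose phosphate pathway, Pgls, the lactonase that follows glucose-6-phosphate dehydrogenase, had signals of 14351, 15393 and 24577 with PL2-3, 17944, 15942 and 22804 with anti-IgM+CpG, 26478, 26497 and 31310.2 with CpG, 12309, 10340.0 and 16085 with anti-IgM, against 11257, 11058 and 10074 in media. The CpG arrays were the highest, and the anti-IgM arrays overlapped media. Pgls rose with PL2-3 (0.70 ± 0.16, adjusted p = 0.00449), anti-IgM+CpG (0.79 ± 0.16, 0.00112; actin-based 0.57) and CpG (1.37 ± 0.16, 1.82e-05), while anti-IgM gave 0.23 ± 0.16 (0.358). On Enzo arrays alone the rise with PL2-3 was 0.41 and was not called. Rpia, which interconverts the pentose phosphates that feed nucleotide synthesis, had signals of 9054, 8912 and 10237 with PL2-3, 10831, 9386 and 10259 with anti-IgM+CpG, 8074, 8071 and 10253 with CpG, 8419, 7184 and 8377 with anti-IgM, against 6658, 5692 and 7039.9 in media, with every stimulated array above media. It rose with PL2-3 (0.54 ± 0.13, adjusted p = 0.00721), anti-IgM+CpG (0.65 ± 0.13, 0.00114; actin-based 0.51) and CpG (0.44 ± 0.13, 0.0217), and anti-IgM gave 0.31 ± 0.13 (0.13). The call with CpG was lost after quantile normalization (0.31), on Enzo arrays alone (0.39) and without media replicate 2 (0.37) or CpG replicate 3 (0.37). Pgd, which yields NADPH and a pentose phosphate, had signals of 12472, 9903 and 22232 with PL2-3, 23954, 17008 and 22487 with anti-IgM+CpG, 13007, 13454 and 21301 with CpG, 16496, 9291 and 21266 with anti-IgM, against 11619, 9771 and 15228 in media, and the Ambion array was high in most groups. It rose with anti-IgM+CpG (0.80 ± 0.22, adjusted p = 0.00751), a call lost in the actin-based fit (0.30) and after quantile normalization (0.44).

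Transketolase (Tkt) and transaldolase (Taldo1) link the pentose phosphates back to glycolysis, and they differed. Tkt had signals of 57728, 54848 and 63729 with PL2-3, 74978, 65949.7 and 57748 with anti-IgM+CpG, 50464, 45136 and 62053 with CpG, 69325, 52593 and 65283 with anti-IgM, against 46636, 39325 and 45324 in media, with every stimulated array but CpG replicate 2 above the highest media array. It rose with anti-IgM+CpG (0.59 ± 0.16, adjusted p = 0.00669; actin-based 0.47) and anti-IgM (0.51 ± 0.16, 0.0333), and PL2-3 and CpG gave 0.43 ± 0.16 (0.0574) and 0.25 ± 0.16 (0.242). A second Tkt probe set was called higher with all 4 stimuli (0.73, 0.85, 0.66 and 0.66 for PL2-3, anti-IgM+CpG, CpG and anti-IgM), and the first one was called with PL2-3 after quantile normalization (0.38). The call with anti-IgM was lost without media replicate 2 (0.44), media replicate 3 (0.50), anti-IgM replicate 1 (0.40) or anti-IgM replicate 3 (0.50). Taldo1 had signals of 8760.5, 8258 and 16642 with PL2-3, 14419.5, 13348 and 12859 with anti-IgM+CpG, 7989.7, 8771 and 14860.0 with CpG, 12315, 10672 and 16332 with anti-IgM, against 15498, 13140.5 and 20661 in media. Its Ambion arrays were the highest in every group but anti-IgM+CpG, so that the groups overlap across kits. It fell with PL2-3 (-0.60 ± 0.19, adjusted p = 0.0257) and CpG (-0.67 ± 0.19, 0.0126), and both falls were lost under median scaling (-0.37 and -0.24). With anti-IgM+CpG it gave -0.25 ± 0.19 and with anti-IgM -0.32 ± 0.19, and the value with anti-IgM+CpG turned with the settings, to -0.72 in the actin-based fit and -0.58 after quantile normalization, both called, and to 0.46 under median scaling, not called. The falls with PL2-3 and CpG were also lost without media replicate 1 (-0.53 and -0.60), PL2-3 replicates 1 or 2 (-0.55 and -0.50), CpG replicate 1 (-0.58), and for PL2-3 without media replicate 3 (-0.60).

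Hif1a, the oxygen-regulated subunit of the hypoxia factor, had signals of 11280.3, 10367 and 10103 with PL2-3, 13259, 12027 and 11221 with anti-IgM+CpG, 9022, 11315 and 11314 with CpG, 13165, 11224 and 13318 with anti-IgM, against 14449, 14615 and 14754 in media. All stimulated arrays were below media, whose 3 arrays lay within a narrow range. Hif1a fell with PL2-3 (-0.46 ± 0.14, adjusted p = 0.0206) and CpG (-0.47 ± 0.14, 0.0162), and gave -0.27 ± 0.14 with anti-IgM+CpG and -0.22 ± 0.14 with anti-IgM. Under median scaling the 2 falls were -0.24 and -0.04 and no longer passed. The value with anti-IgM+CpG was -0.59 and called after quantile normalization, -0.30 in the actin-based fit and 0.45 under median scaling, neither of these called, and that with anti-IgM was 0.07 under median scaling. The falls with CpG and PL2-3 were also lost without CpG replicate 1 (-0.36), PL2-3 replicates 2 or 3 (-0.45 and -0.42), or for PL2-3 without media replicates 2 or 3 (-0.46 each). Myc, a known activator of many glycolysis genes, had signals of 33820.3, 42821 and 17417 with PL2-3, 36915, 29760.3 and 31551 with anti-IgM+CpG, 37330.0, 34453 and 21096 with CpG, 32652, 39369 and 21811 with anti-IgM, against 10047, 10004 and 3099.7 in media. It rose by 2.10 ± 0.24 with PL2-3, 2.25 ± 0.24 with anti-IgM+CpG (actin-based 2.96), 2.13 ± 0.24 with CpG and 2.15 ± 0.24 with anti-IgM (adjusted p = 1.96e-05, 3.35e-06, 1.12e-05 and 3.47e-05), with no overlap with media. Txnip, which limits glucose uptake, had signals of 2134, 926 and 5636 with PL2-3, 3866, 2867 and 2907 with anti-IgM+CpG, 2469.6, 2184 and 3501 with CpG, 1829, 2139.7 and 5158 with anti-IgM, against 6955, 8249 and 11278 in media. Its changes were -1.91 ± 0.36, -1.42 ± 0.36, -1.67 ± 0.36 and -1.64 ± 0.36 for PL2-3, anti-IgM+CpG, CpG and anti-IgM (adjusted p = 0.000944, 0.00451, 0.00211 and 0.00401), and under median scaling that with anti-IgM+CpG was -0.71 and not called (actin-based -2.16, called). Of 7 tested regulators of glycolysis, 2 rose and 2 fell with PL2-3, 4 and 3 with anti-IgM+CpG, 1 and 2 with CpG, and 1 and 2 with anti-IgM, and the actin-based fit gave 4 and 2 with anti-IgM+CpG. These are 57.1%, 100% and, for CpG and for anti-IgM, 42.9% of a list of 7, beside 25.9%, 41.9%, 30.1% and 19.5% of all genes.

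Receptor and Toll-like receptor stimulation alone were compared directly, CpG against anti-IgM. Of the 31 genes 2 were higher and 3 lower with CpG, where 2.57% and 3.84% of all tested genes were (6.41% together), and the median was -0.23, beside -0.05 over all genes. Hk2 was higher with CpG (0.94 ± 0.14, adjusted p = 0.000435), as was Pgls (1.14 ± 0.16, 0.000262). Pfkp was lower (-1.65 ± 0.18, 1.66e-05), as were Eno2 (-1.57 ± 0.38, 0.0177) and Ldhb (-1.04 ± 0.26, 0.0217). None of the 5 overlapped between the 2 groups, but they were picked by the test on these same arrays, so this adds no support. After quantile normalization and under median scaling, 2 of the 31 were higher and 3 lower too. Median scaling moved the share of higher calls over all genes to 51.3%, beside 40.1% as deposited. Hk2, Pfkp and Pgls held in all alternative fits and without each array of the compared groups. Eno2 and Ldhb were both lost without anti-IgM replicate 2 (-1.43 and -0.95), CpG replicate 1 (-1.50 and -0.97) or CpG replicate 3 (-1.40 and -0.98), Eno2 also without anti-IgM replicate 3 (-1.62) and Ldhb without anti-IgM replicate 1 (-0.99). The difference of Slc16a1 was 0.03 (95% interval -0.41 to 0.47), and that of Ldha -0.28 (-0.66 to 0.09).

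PL2-3, which engages both receptors, was compared with each stimulus. Against CpG, 1 of the 31 genes was higher and 1 lower with PL2-3, where 1.60% of all tested genes were in each direction (3.20% together). Pfkp was higher (1.27 ± 0.18, adjusted p = 0.000604), and Pgls was lower (-0.67 ± 0.16, 0.0321). The Pfkp call was lost with the mean of its probe sets, which was also positive. The Pgls call was lost under median scaling (-0.88) and without any 1 of CpG replicates 1, 2 and 3 (-0.65, -0.65 and -0.72) or PL2-3 replicates 1 and 2 (-0.58 and -0.63). Eno2 gave 1.16 ± 0.38 (0.133) and Ldhb 0.82 ± 0.26 (0.111), neither of which passed. Against anti-IgM, 0 of the 31 passed the limma test and 3 had an unadjusted p under 0.05, where 0.691% of all genes passed (0.342% higher and 0.350% lower) and 7.18% had an unadjusted p under 0.05. Those 3 were Hk2 (0.54, 95% interval 0.24 to 0.84), Pgls (0.47, 0.12 to 0.81) and Pfkp (-0.39, -0.77 to -0.01), and the interval of Eno2 was -1.22 to 0.39. Against anti-IgM+CpG, 0 passed and 7 had an unadjusted p under 0.05, where 1.84% of all genes passed (1.32% higher and 0.517% lower) and 20.4% had an unadjusted p under 0.05, and the actin-based fit gave 0 as well. Under median scaling 4 genes were lower with PL2-3, and without anti-IgM+CpG replicate 3 a count of 5 passed. Median scaling moved the share of higher calls over all genes to 26.8% against CpG and 9.11% against anti-IgM+CpG, from deposited shares of 49.9% and 71.9%. The median of the 31 was 0.17 against CpG, -0.07 against anti-IgM and -0.07 against anti-IgM+CpG, beside 0.06, 0.02 and 0.10 over all genes. A p that misses the threshold does not show that 2 stimuli act alike.

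Anti-IgM+CpG was set against each agent alone. Against anti-IgM, 2 genes were higher and 2 lower with both agents, where 3.72% and 5.36% of all genes were (9.07% together). Hk2 was higher (1.04 ± 0.14, adjusted p = 0.000498; actin-based 1.11), a call that held in all fits and without each array of the compared groups. Pgls was higher (0.55 ± 0.16, 0.0443), and Slc2a3 (-0.53 ± 0.16, 0.0462) and Hk3 (-0.98 ± 0.28, 0.0417) were lower. These 3 were lost in the actin-based fit (0.33, -0.50 and -0.74). The Pgls call was lost after quantile normalization (0.34) and without any 1 of the 6 arrays (0.46 to 0.62), and the Slc2a3 call under median scaling (-0.10) and without any 1 of them but anti-IgM+CpG replicate 3 (-0.61 to -0.40). The Hk3 call was lost under both scalings (-0.63 and -0.61) and without anti-IgM replicate 2 (-0.78), anti-IgM replicate 3 (-0.98), anti-IgM+CpG replicate 2 (-1.09) or anti-IgM+CpG replicate 3 (-0.73). Against CpG, Pfkp was higher with both agents (1.24 ± 0.18, adjusted p = 0.000996) and Hk3 lower (-1.09 ± 0.28, 0.036), where 1.91% and 2.61% of all genes were (4.53% together). The actin-based fit gave 2 higher and 1 lower, and Hk3 was lost there, under both scalings (-0.82 and -0.85) and without CpG replicate 2 (-0.90) or 3 (-0.98) or anti-IgM+CpG replicate 2 (-1.20) or 3 (-0.85). The mean of the Pfkp probe sets gave -0.13 for this comparison, as its dim probe sets were low on these arrays. Eno2 gave 0.80 ± 0.38 (0.263) with the kit as labelled and 1.68 in the actin-based fit. Under median scaling 6 genes were higher and 0 lower against anti-IgM, and 2 and 0 against CpG, with 85.6% and 71.1% of all calls higher, where the deposited signals gave 41% and 42.3%. The median of the 31 was -0.05 against anti-IgM and 0.30 against CpG, beside -0.11 and -0.03 over all genes. Hk2 did not pass between both agents and CpG (0.10, 95% interval -0.21 to 0.40).

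**Figure D5:**
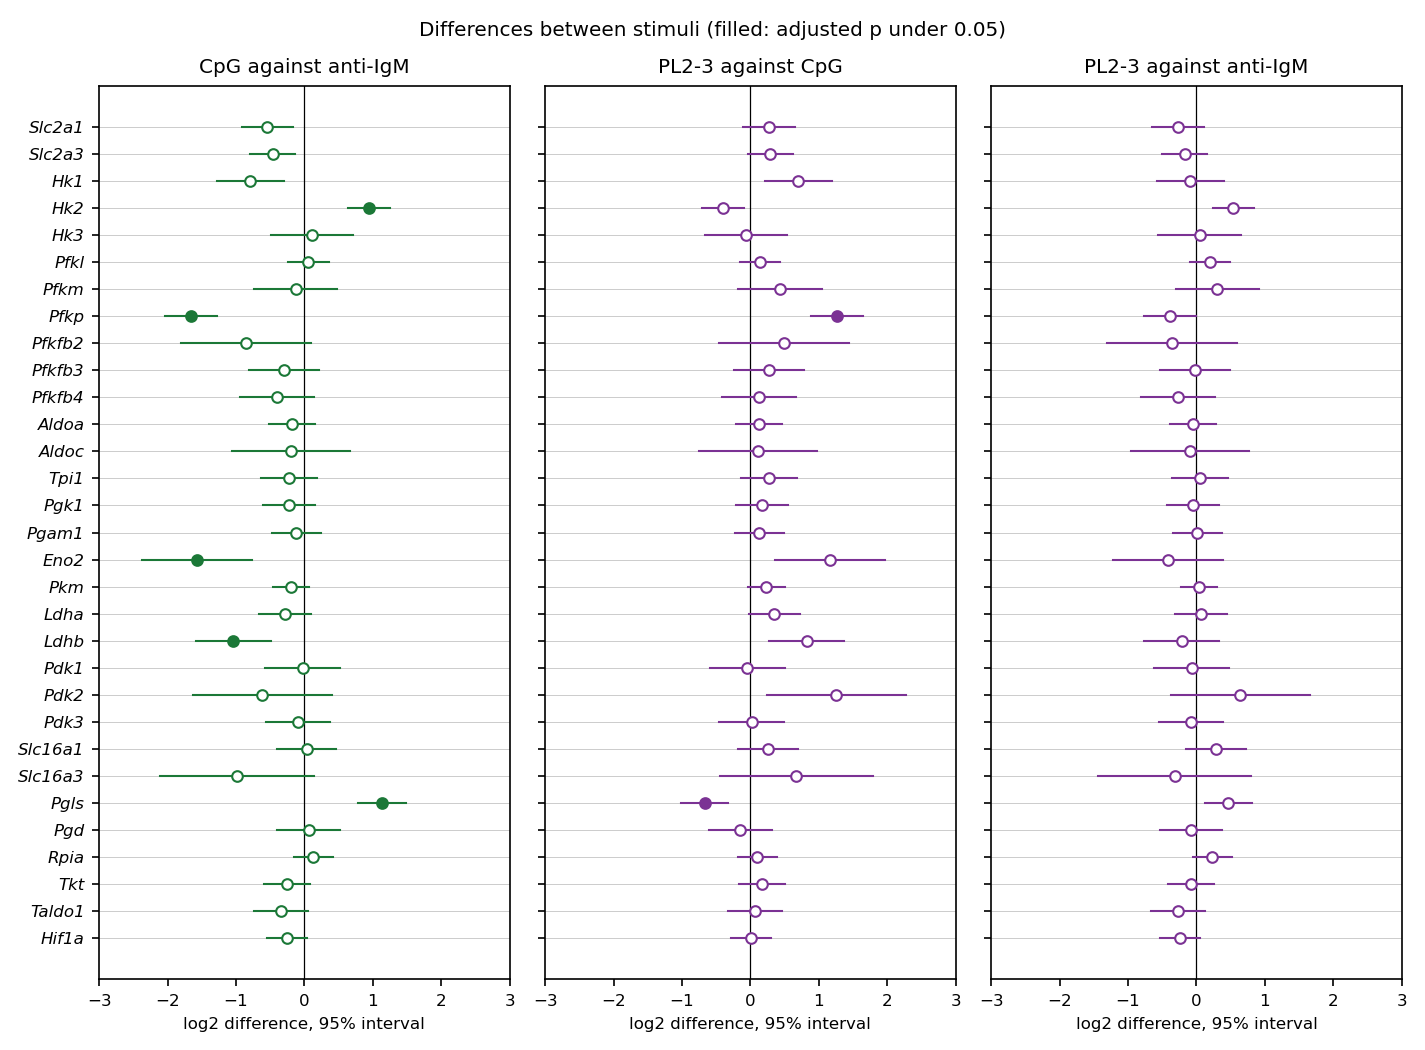
Log2 difference (x axis, with 95% interval) of the 31 genes between stimuli, in panels for CpG against anti-IgM, PL2-3 against CpG and PL2-3 against anti-IgM. Filled points had an adjusted p under 0.05; 5 genes are filled in the left panel, 2 in the middle panel and none in the right panel, and Pfkp lies at -1.65 and 1.27 in the first 2.

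Genes of the neighbouring steps were tested from lists chosen with earlier results of these data known. Of 23 other tested genes of glycolysis and hexose handling, 3 rose and 3 fell with PL2-3, 4 and 8 with anti-IgM+CpG, 3 and 6 with CpG, and 3 and 5 with anti-IgM. These are 26.1%, 52.2%, 39.1% and 34.8% of the list, beside 25.9%, 41.9%, 30.1% and 19.5% of all genes. The median log2 change of this list was -0.29, -0.59, -0.47 and -0.29, and the actin-based fit gave 3 rises and 6 falls with anti-IgM+CpG. Slc2a8, an intracellular glucose transporter, fell with every stimulus (-2.12 ± 0.41, -2.60 ± 0.41, -2.90 ± 0.41 and -1.26 ± 0.41 for PL2-3, anti-IgM+CpG, CpG and anti-IgM). Eno3, the muscle enolase, fell too (-1.27, -1.40, -1.47 and -1.03), as did Bpgm, which makes 2,3-bisphosphoglycerate and is also a red cell marker (-1.70, -0.98, -1.46 and -1.19). Adpgk, an ADP-dependent glucokinase, rose with every stimulus (0.83, 1.08, 0.71 and 0.69). Of 11 genes for pyruvate entry into mitochondria, 3, 6, 1 and 3 rose with the same 4 stimuli (27.3%, 54.5%, 9.09% and 27.3%) and none fell, and in the actin-based fit 4 rose with anti-IgM+CpG. Bsg, the chaperone of the monocarboxylate transporters, rose with all 4 (0.46, 0.78, 0.40 and 0.52). Mpc1, a subunit of the mitochondrial pyruvate carrier, rose with PL2-3 (0.73 ± 0.25) and anti-IgM (1.14 ± 0.25), and gave 0.48 ± 0.25 with anti-IgM+CpG and 0.20 ± 0.25 with CpG. Of 11 other pentose phosphate and NADPH genes, 3 rose and 1 fell with PL2-3, 4 and 3 with anti-IgM+CpG, 4 and 3 with CpG, and 3 and 0 with anti-IgM (36.4%, 63.6%, 63.6% and 27.3% called), with 3 and 3 in the actin-based fit of anti-IgM+CpG. Prps1, which turns ribose 5-phosphate into the precursor of nucleotides, rose with all 4 (1.12 ± 0.18, 1.58 ± 0.18, 1.26 ± 0.18 and 0.89 ± 0.18). Idh1, a cytosolic source of NADPH, fell with PL2-3 (-1.65 ± 0.49), anti-IgM+CpG (-1.82 ± 0.49) and CpG (-2.23 ± 0.49) and gave -1.35 ± 0.49 with anti-IgM. In the actin-based fit the anti-IgM+CpG values were -2.38 for Slc2a8, -1.62 for Eno3, -1.28 for Bpgm, 0.76 for Adpgk, 0.60 for Bsg, 1.48 for Prps1 and -2.65 for Idh1, all called. Under median scaling, 3, 2, 2 and 0 of the other glycolysis genes were still lower with PL2-3, anti-IgM+CpG, CpG and anti-IgM, and 3, 5, 4 and 4 were higher. Median scaling ended the falls of Eno3 with anti-IgM+CpG (-0.72) and anti-IgM (-0.74), of Bpgm with anti-IgM+CpG (-0.27), CpG (-1.03) and anti-IgM (-0.90), of Slc2a8 with anti-IgM (-0.99), and of Idh1 with PL2-3 (-1.42) and anti-IgM+CpG (-1.19). Quantile normalization ended the falls of Slc2a8 with anti-IgM (-1.05) and Idh1 with anti-IgM+CpG (-1.24), and the rises of Bsg with PL2-3 (0.37) and CpG (0.25) and of Mpc1 with PL2-3 (0.70).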

How the data were processed

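The values are the authors' deposited array signals, intensities on a linear scale made with MAS5 per the submitters' processing notes, with no version or scaling target stated there. Per the labels' protocols, the extraction used Qiagen RNeasy and the label was biotin. Of 45037 probe sets, 34945 carried 1 gene symbol, 932 several and 9160 none, and 64 control probe sets were left out. Symbols were updated through Entrez identifiers for 34741 probe sets. The brightest probe set stood for each gene, and a gene was tested (13160 of 18193) where at least 3 of 15 arrays had it at or above their median signal. The log2 of the deposited signal plus 75.2 (the 20th percentile over all arrays) was fitted with limma 3.58.1 in R 4.3.3, with terms for group and labelling kit over all 15 arrays (9 residual degrees of freedom) and eBayes with an intensity trend. P-values were two-sided and Benjamini-Hochberg adjusted over all tested genes, with 0.05 as the threshold. Plots used Python 3.11.15 with matplotlib 3.10.9, and the procedure was tested on simulated data. All measured members were named, with at most 4 called genes per other list and comparison, by size of change. The members and the gene lists were chosen with earlier results of these data known. An exact permutation test of 3 arrays against 3 cannot go below 0.1, so precision is limited by the number of arrays. Alternatives were quantile and median scaling, other pseudocounts and filters, other labelling terms, a replicate block, Enzo arrays only and the mean of probe sets. Others were the compared groups only, eBayes without a trend, a 2-fold minimum and runs without each array of the compared groups in turn. No 2 arrays held identical values, and the highest correlation between 2 arrays was 0.965.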

Additional observations from a re-analysis of the deposited data

How the results depend on the processing

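Counts are of the 31 genes called by limma. The share of all tested genes called under each setting is not given here. A shift in these counts therefore cannot be told from a shift in all calls. With a 2-fold minimum, 7 were called with PL2-3, 15 with anti-IgM+CpG, 8 with CpG and 6 with anti-IgM against media, 1 for PL2-3 against CpG and 1 for anti-IgM+CpG against anti-IgM. For CpG against media the count was 12 under median scaling and 12 on Enzo arrays alone. For PL2-3 against CpG it was 1 under median scaling, without a labelling term, without a trend and with the mean of probe sets, and 4 with the compared groups only. For PL2-3 against anti-IgM+CpG it was 4 under median scaling and 3 on Enzo arrays alone. For anti-IgM+CpG against anti-IgM it was 2 after quantile normalization and without a trend, and 1 with no filter, without a labelling term, with the actin-based labelling and with the compared groups only. For anti-IgM+CpG against CpG it was 1 with no filter, without a labelling term, without a trend, with the mean of probe sets and with the compared groups only, 5 with the filter on all 15 arrays and 7 on Enzo arrays alone. Leaving out 1 array gave 11 to 17 for PL2-3 against media, 19 to 25 for anti-IgM+CpG against media, 13 to 17 for CpG against media, 8 to 12 for anti-IgM against media, 3 to 5 for CpG against anti-IgM, 1 to 2 for PL2-3 against CpG, 0 for PL2-3 against anti-IgM, 0 to 5 for PL2-3 against anti-IgM+CpG, 1 to 6 for anti-IgM+CpG against anti-IgM and 1 to 7 for anti-IgM+CpG against CpG. The highest count of the last comparison, 7, came without anti-IgM+CpG replicate 3, and the count of 3 for CpG against anti-IgM without anti-IgM replicate 2, CpG replicate 1 or CpG replicate 3. With the mean of probe sets, Pfkp changed sign with anti-IgM+CpG against media (-0.20) and against CpG (-0.13). The causes of these shifts were not tested. The replicate block in place of the labelling term gave 17 called with PL2-3, 24 with anti-IgM+CpG, 19 with CpG and 10 with anti-IgM against media, and 5, 2, 0, 0, 3 and 2 for CpG against anti-IgM, PL2-3 against CpG, PL2-3 against anti-IgM, PL2-3 against anti-IgM+CpG, anti-IgM+CpG against anti-IgM and anti-IgM+CpG against CpG. The block ended the calls of Aldoc with anti-IgM and of Pdk2 with anti-IgM+CpG against media, and of Slc2a3 for anti-IgM+CpG against anti-IgM, and added Tkt with PL2-3. Same-numbered arrays share a number and, by the labels, a kit, and no label pairs them otherwise. Outside anti-IgM+CpG, the deviations of 18 of 18 same-numbered pairs of arrays correlated above 0.1, against 8 of 36 other pairs, while 0 of 12 same-numbered pairs that include anti-IgM+CpG did. These deviations from the group mean still hold the kit difference, so they cannot tell a pairing of replicates from the kit. The median change of the 31 ranged over these alternatives from 0.12 to 0.39 with PL2-3, 0.22 to 1.20 with anti-IgM+CpG, -0.02 to 0.43 with CpG and 0.17 to 0.53 with anti-IgM. The number of arrays limits all of these counts.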

Other observations

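Of 20 tested genes of the hypoxia response, 3 rose and 4 fell with PL2-3, 3 and 6 with anti-IgM+CpG, 3 and 5 with CpG, and 2 and 4 with anti-IgM, each against media, with median log2 changes of -0.28, -0.32, -0.46 and -0.13. These are 35%, 45%, 40% and 30% of the list, beside 25.9%, 41.9%, 30.1% and 19.5% of all genes, and the actin-based fit gave 3 rises and 7 falls with anti-IgM+CpG. Adm, the vasodilator peptide adrenomedullin, rose with PL2-3 (1.74 ± 0.43, limma adjusted p = 0.00686), anti-IgM+CpG (1.34 ± 0.43, 0.0203), CpG (1.52 ± 0.43, 0.014) and anti-IgM (1.92 ± 0.43, 0.00517). Ero1a, which oxidises proteins in the endoplasmic reticulum, rose with all 4 as well (1.14 ± 0.13, 1.53 ± 0.13, 1.04 ± 0.13 and 0.91 ± 0.13), and both genes kept these calls under both other scalings. Epas1, the second oxygen-regulated hypoxia factor subunit, fell with PL2-3 (-1.86 ± 0.42), anti-IgM+CpG (-2.40 ± 0.42), CpG (-2.27 ± 0.42) and anti-IgM (-1.39 ± 0.42), the last of which was lost after quantile normalization (-1.26) and under median scaling (-1.11). Arnt, the constant partner of both subunits, fell with PL2-3 (-0.80 ± 0.20), CpG (-0.79 ± 0.20), anti-IgM (-0.77 ± 0.20) and, furthest, anti-IgM+CpG, and none of these passed under median scaling (-0.59, -0.31, -0.37 and -0.49 for PL2-3, anti-IgM+CpG, CpG and anti-IgM). Ddit4, an inhibitor of mTORC1 signalling, fell with anti-IgM+CpG (-2.64 ± 0.37) and CpG (-2.35 ± 0.37) under all 3 scalings, and gave -0.88 ± 0.37 with PL2-3 and -0.52 ± 0.37 with anti-IgM. In the actin-based fit the anti-IgM+CpG values were 1.97 for Adm, 1.46 for Ero1a, -1.91 for Epas1, -0.85 for Arnt and -2.61 for Ddit4, all called. The summed myeloid marker signal was 53681 to 86394 with PL2-3, 14881 to 150492 with anti-IgM+CpG, 50042 to 98211 with CpG and 57404 to 100523 with anti-IgM, against 120630 to 250031 in media, and its part in the falls was not tested. The upper ends with anti-IgM+CpG and in media came from single arrays, anti-IgM+CpG replicate 1 and media replicate 3.

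Summed signals of T cell markers were 2545 to 3269 with PL2-3, 1705 to 3670 with anti-IgM+CpG, 2382 to 3254 with CpG and 2727 to 3761 with anti-IgM, against 7943 to 11016 in media. Of the 6 tested T cell markers, counts of 2, 4, 3 and 4 fell in that order. None rose, and 1 had a positive change with each stimulus. Those of NK cell markers were 2466 to 4843, 1844 to 4883, 1385 to 5057 and 1722 to 4111 with the same 4 stimuli, against 5292 to 6528 in media. Of the 4 tested NK cell markers, counts of 1, 2, 1 and 1 fell and none rose. Positive changes, none of them called, were seen for 2, 1, 1 and 0 of them. Those of red cell markers were 21295 to 27846, 18307 to 63968, 22319 to 37850 and 23617 to 42570, against 46839 to 88677 in media. By replicate these were 63968, 18307 and 22776 with anti-IgM+CpG and 46839, 49082 and 88677 in media. Of the 3 tested red cell markers, counts of 3, 2, 2 and 1 fell, and none had a positive change. Over all tested genes, 13.5%, 24.8%, 16.9% and 9.32% fell with these stimuli.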
